A study of Mus musculus with 16 samples.

Results

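The genes described here are 10 secreted or cell-surface proteins of injured connective tissue: Postn, Cthrc1, Cilp, Lrrc15, Sparc, Tnc, Spp1, Thbs1, Thbs2 and Thbs4. They were chosen by name, with earlier results of these same hearts known, from 22763 genes and other features tested, so their own differences between groups are given as a description and without p-values. All 10 were represented on the array, by 12 probes, and all 12 probes passed the filter on dim signals. A probe passed where it was well above background on every array of at least 1 group, so a gene that is dim in 3 groups could pass through the group in which it is high.

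Messenger RNA was read in 16 hearts of C57BL/6 mice, 1 heart per 1-colour Agilent array, in 4 groups of 4. T1R1, T2R1 and T3R1 mice had 1, 2 and 3 days of exposure to aggressor mice in a social-defeat model and then 1 day of rest. Control mice were kept in the same kind of mesh box with no aggressor, and the labels place all 4 of them in the 2-day arm. The treatment text of the labels gives other numbers of days than the group names, which were followed here. All mice were of 1 strain, and nothing in the labels says whether hearts came from separate cages or litters, so the spread between hearts is the only error measured.

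Matricellular proteins are secreted into the extracellular matrix, where they bind collagens, growth factors and cell-surface receptors without building the fibrils themselves. In the adult heart most are scarce, and they appear after injury or overload, when resident fibroblasts become activated, divide and lay down collagen. Periostin (Postn) and Cthrc1 are widely used marks of that state in mouse heart. Osteopontin (Spp1) and the thrombospondins signal through integrins, Cd44, Cd36 and Cd47, and macrophages are a further source of Spp1.

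Some of the probes and upstream regions are shown so that the measured part of each gene can be seen. Both probes for Tnc and the probe for Thbs2 lie in coding sequence. They are given because the Tnc probes differ in the size of the change and Thbs2 differs from the other members. Letters are those of the array design, 5′ to 3′, with no part in capitals, and positions are in mm9. The first Tnc probe and the Thbs2 probe span an intron.
Tnc, chr4:63674248-63675011, minus strand: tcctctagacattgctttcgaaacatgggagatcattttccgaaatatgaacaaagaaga
Tnc, chr4:63643728-63643787, minus strand: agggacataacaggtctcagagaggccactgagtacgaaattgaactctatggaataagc
Thbs2, chr17:14804526-14805789, minus strand: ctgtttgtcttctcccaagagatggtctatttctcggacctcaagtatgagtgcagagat

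RefSeq windows of 250 bases before the start (GRCm38.p6) were matched for 8 members. The AP-1 letters TGANTCA, the TEAD letters GGAATG and the CArG box of serum response factor were searched on both strands. AP-1 letters were in the window of 1 of the 8 members, Lrrc15, and in 6.87% of 27025 promoters. TEAD letters were in that of 1 member, Thbs4, as a pair of matches that share 1 base, and in 12.6% of promoters. A CArG box was in 0 of the 8 and in 1.40% of promoters. These are matches of letters only. The windows with a match follow, with the matched letters in capitals.
Thbs4, chr13:92794819-92795068, minus strand: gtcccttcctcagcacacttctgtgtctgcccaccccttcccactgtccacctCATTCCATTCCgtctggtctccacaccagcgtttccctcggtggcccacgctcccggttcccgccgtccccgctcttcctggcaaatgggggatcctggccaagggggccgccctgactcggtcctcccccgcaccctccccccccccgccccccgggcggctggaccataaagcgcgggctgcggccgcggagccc
Lrrc15, chr16:30283255-30283504, minus strand: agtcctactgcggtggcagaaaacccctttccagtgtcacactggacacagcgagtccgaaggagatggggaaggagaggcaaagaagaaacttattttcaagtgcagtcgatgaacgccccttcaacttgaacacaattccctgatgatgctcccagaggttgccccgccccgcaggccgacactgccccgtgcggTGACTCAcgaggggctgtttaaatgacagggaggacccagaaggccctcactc

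Before the results, 2 arrays need to be set apart. Control replicate 1 correlated more closely with the T3R1 arrays (mean Pearson r 0.988 over all features) than with the other control arrays (0.970), and its nearest array was T3R1 replicate 1. On T1R1 replicate 1 the mean correlation was 0.987 with control replicates 2 to 4, against 0.979 to 0.980 for the other T1R1 arrays. Its mean correlation with the T2R1 arrays was about as high (0.986), and its nearest array was T2R1 replicate 1. No group was changed, and results are given with and without control replicate 1. Spots well above background made up 46.5% to 67.1% of each array. The 75th percentile of the processed intensity was 547 on control replicate 1, between 257 and 273 on the other control arrays and between 283 and 407 on the exposed arrays. Control and T3R1 arrays lay on 1 slide, and T1R1 and T2R1 arrays on the other. When T1R1 or T2R1 is set against control or T3R1, exposure therefore cannot be told apart from slide, whereas T3R1 over control and T2R1 over T1R1 are comparisons within a slide.

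Hearts of the T3R1 group had higher levels of nearly all of these transcripts than hearts of the T1R1 and T2R1 groups, whose arrays lay on the other slide. For 9 of the 10 genes every T3R1 array lay above every T1R1 and T2R1 array, the exception being Thbs1. For 7 of the 10 every T3R1 array also lay above all 12 other arrays, control replicate 1 included. Tnc and Lrrc15 are in both counts and passed the filter on dim signals through the T3R1 group only. Both counts use the brighter probe of Tnc and of Sparc. On the dimmer probe of each, not every T3R1 array lay above control replicate 1, and for Sparc T3R1 overlapped T2R1. Of the 8 genes that were well above background on all 4 T2R1 arrays, 7 had every T2R1 array above control replicates 2 to 4, the exception being Thbs2. Only for Postn, Sparc and Cilp did every T2R1 array lie above every T1R1 array. All counts in this paragraph are for the scaling used here. With the authors' values Thbs4 on T3R1 replicate 2 (11.302) lay below control replicate 1 (11.337). The brighter Sparc probe did so on T3R1 replicates 2 and 4 (17.507 and 17.06, against 17.755), and its exposed groups overlapped. Spp1 on T2R1 replicate 1 (5.869) lay below control replicate 4 (5.911). The share of all features that separate in these ways is not given here, so nothing is read from these counts. Control replicate 1 was the highest control array for 9 of the 10 genes, and T1R1 replicate 1 was the lowest T1R1 array for 9 of the 10, with Thbs2 the exception to both. On T1R1 replicate 1 the signals of Cthrc1, Tnc and Lrrc15 were not well above background. Levels below are log2 signals relative to the 75th percentile of the array, in the order of replicates 1 to 4, and can be compared between arrays for 1 probe but not between genes.

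**Figure D1:**
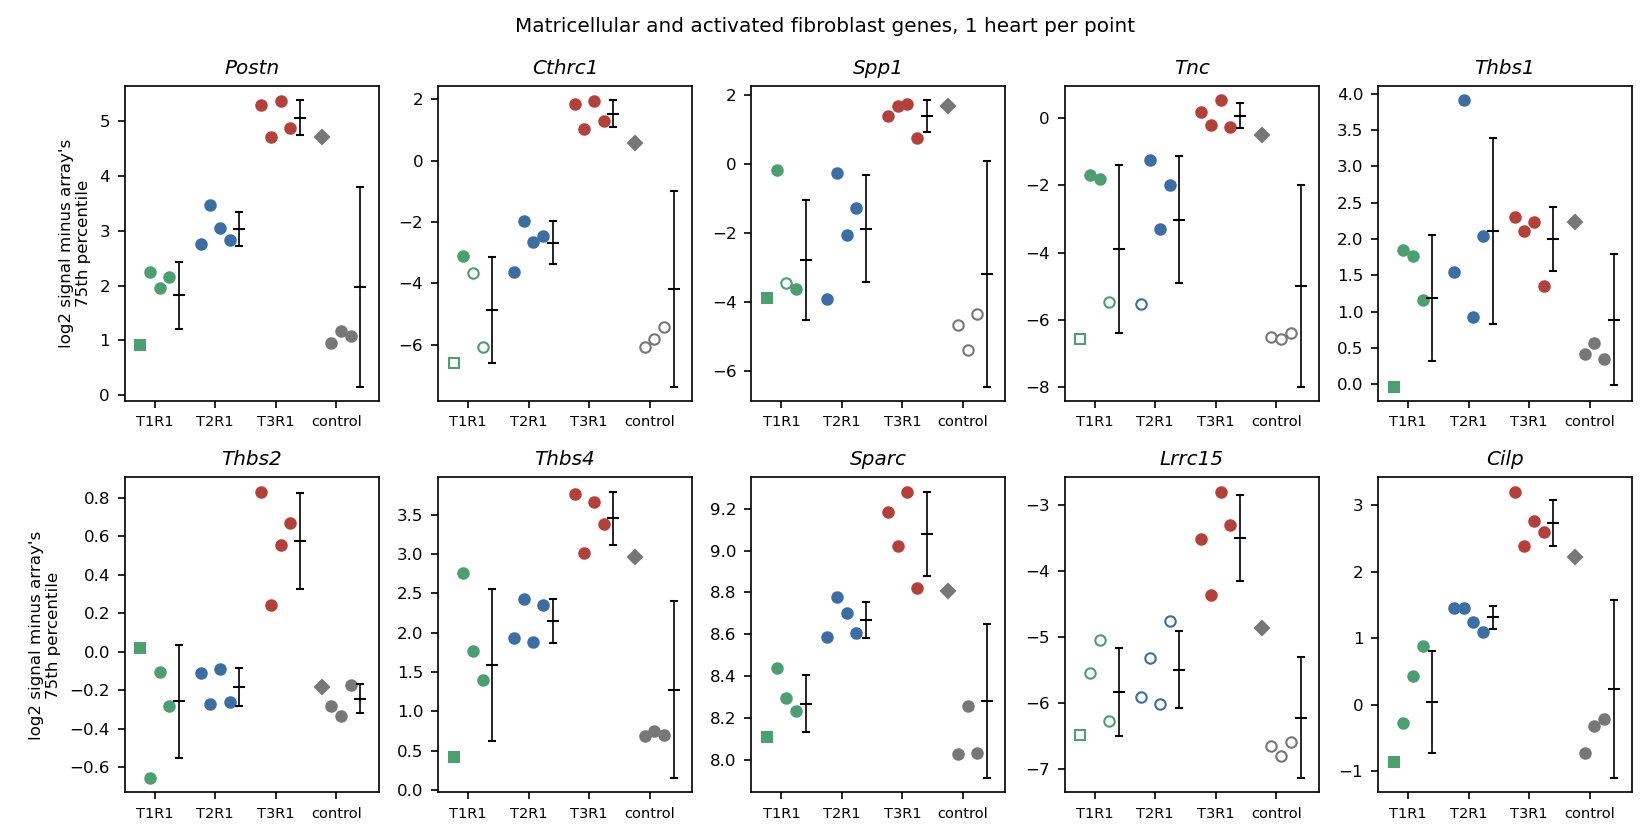
Level of each gene on each array (log2 signal minus the 75th percentile of the array) by group, with 1 point per heart, filled where the probe was well above background and open where it was not. Diamonds are control replicate 1, squares are T1R1 replicate 1, and the black bars are the group mean ± SD of 4 hearts. The T3R1 points lie above the T1R1 and T2R1 points in every panel except Thbs1.

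Postn, the integrin ligand periostin, measured by a probe at chr3:54194840-54194899 (mm9, plus strand), had a higher mean in T2R1 than in T1R1 hearts on 1 slide, and a higher mean again in T3R1 hearts on the other. Its levels were 0.92, 2.24, 1.96 and 2.16 in T1R1 hearts, 2.77, 3.46, 3.05 and 2.84 in T2R1 hearts and 5.30, 4.70, 5.36 and 4.88 in T3R1 hearts, against 4.71, 0.95, 1.18 and 1.08 in control hearts. The 3 exposed groups did not overlap each other. Control replicate 1 lay at the lower edge of the T3R1 range, and T1R1 replicate 1 just below the other 3 controls. The T3R1 mean was 5.06 ± 0.32 and the control mean 1.98 ± 1.82 (SD, n = 4 each), a log2 difference of 3.08 ± 0.64 (SE), or 8.46-fold. Without control replicate 1 the difference was 3.99 ± 0.28, or 15.9-fold. In T2R1 over control it was 1.05 ± 0.64 with all arrays and 1.96 ± 0.28 without control replicate 1, and in T1R1 over control -0.16 ± 0.64 and 0.75 ± 0.28.

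Cthrc1, a secreted protein of activated fibroblasts, had dim signals in most T1R1 and control hearts. The probe (chr15:38918358-38918417, mm9, plus strand) was well above background on 1 of 4 T1R1 arrays, 4 of 4 T2R1 arrays, 4 of 4 T3R1 arrays and 1 of 4 control arrays, which was replicate 1. Levels were -6.60, -3.10, -3.67 and -6.09 in T1R1 hearts, -3.62, -1.98, -2.64 and -2.44 in T2R1 hearts and 1.84, 1.04, 1.96 and 1.28 in T3R1 hearts, against 0.57, -6.10, -5.81 and -5.41 in control hearts. T3R1 lay above all other arrays, T2R1 above control replicates 2 to 4, and T1R1 overlapped T2R1. The log2 difference of T3R1 over control was 5.72 ± 1.21, and 7.30 ± 0.71 without control replicate 1. Both rest on the values of control replicates 2 to 4, which were not well above background, and the first was 2.89 with normexp background correction and 3.43 with the authors' values.

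Because dim values lie within the noise, a bound was computed for genes that were not well above background on any of control replicates 2 to 4. For every array the dimmest probe that still counted as well above background set a floor, dim values under it were replaced by it, and all replicates of the brighter group were averaged. By that measure Cthrc1 was at least 69.3-fold higher in T3R1 hearts and at least 3.77-fold higher in T2R1 hearts than in control replicates 2 to 4. In T1R1 only 1 array measured it and no bound above 1 was reached. This floor is the most lenient one, since brighter values can still be not well above background. Spp1 at -3.47 on T1R1 replicate 3, for example, was not. All bounds given here therefore hold for this floor only, and a stricter one would lower them. They also hold only for the processed intensity, and are not lower limits for values made without background correction. With the authors' values Cthrc1 read 9.39 to 10.31 in T3R1 hearts, against 5.54 to 5.63 on control replicates 2 to 4. That is a smaller step than the bound.

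Cilp, a matrix protein first known from cartilage and made by cardiac fibroblasts, had levels of -0.86, -0.28, 0.44 and 0.88 in T1R1 hearts, 1.46, 1.46, 1.24 and 1.10 in T2R1 hearts and 3.20, 2.39, 2.76 and 2.59 in T3R1 hearts, against 2.23, -0.73, -0.32 and -0.22 in control hearts (chr9:65128007-65128066, mm9, plus strand). The exposed groups were stepped and did not overlap, T1R1 overlapped control replicates 2 to 4, and control replicate 1 lay between T2R1 and T3R1. The log2 difference of T3R1 over control was 2.50 ± 0.52, and 3.16 ± 0.33 without control replicate 1. T2R1 over T1R1, within 1 slide, differed by 1.27 ± 0.52.

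Lrrc15, a membrane protein of fibroblasts exposed to TGF-beta, was well above background on 4 of 4 T3R1 arrays and on control replicate 1, and on 0 of the T1R1 and T2R1 arrays (chr16:30269537-30269596, mm9, minus strand). Levels were -6.48, -5.54, -5.04 and -6.26 in T1R1 hearts, -5.90, -5.31, -6.01 and -4.75 in T2R1 hearts and -3.51, -4.37, -2.80 and -3.30 in T3R1 hearts, against -4.85, -6.64, -6.79 and -6.58 in control hearts. T3R1 hearts lay above all others, with a log2 difference of 2.73 ± 0.47 over control and 3.18 ± 0.41 without control replicate 1. The first of these was 0.37 with normexp and 0.76 with the authors' values. By the lenient floor described above, Lrrc15 was at least 2.14-fold higher in T3R1 hearts than in control replicates 2 to 4. It was at least 1.68-fold higher than in T1R1 hearts and at least 2.26-fold higher than in T2R1 hearts. The bounds against T1R1 and T2R1 compare arrays on different slides.

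Sparc, a collagen-binding protein that aids procollagen processing, was well above background on every array. The brighter probe (chr11:55208939-55208998, mm9, minus strand) gave 8.11, 8.44, 8.30 and 8.23 in T1R1 hearts, 8.59, 8.78, 8.70 and 8.61 in T2R1 hearts and 9.19, 9.02, 9.28 and 8.82 in T3R1 hearts, against 8.81, 8.03, 8.26 and 8.03 in control hearts. In the scaling used here all 3 exposed groups were separate from one another, and the lowest T3R1 array lay just above control replicate 1. With the authors' values the groups overlapped on this probe. T1R1 replicate 2 (17.002) lay above T2R1 replicate 3 (16.988), and T3R1 replicate 4 (17.06) lay below T2R1 replicate 1 (17.064) and control replicate 1 (17.755). The difference of T3R1 over control was 0.80 ± 0.16 on the log2 scale, or 1.74-fold, and 0.97 ± 0.11 without control replicate 1. The second probe (chr11:55208003-55208061, mm9, minus strand) gave 0.68, and on it T3R1 and T2R1 overlapped, with means of 4.50 ± 0.28 and 4.36 ± 0.09 (SD, n = 4 each). On that probe control replicate 1 (4.72) lay above T3R1 replicates 1 to 3.

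Tnc encodes tenascin C, an anti-adhesive glycoprotein that is scarce in adult myocardium. Its brighter probe read -6.57, -1.68, -1.81 and -5.48 in T1R1 hearts, -5.53, -1.23, -3.31 and -1.99 in T2R1 hearts and 0.20, -0.18, 0.54 and -0.26 in T3R1 hearts, against -0.49, -6.51, -6.58 and -6.39 in control hearts. T1R1 and T2R1 hearts were mixed, with some near the controls and others far above them, whereas T3R1 hearts were uniform. On both probes the T3R1 arrays and control replicate 1 were the 5 highest. On the second, T3R1 replicate 4 (-1.93) lay below control replicate 1 (-1.79). The size differed too: T3R1 over control was 5.06 ± 1.42 on the first and 3.81 on the second. Without control replicate 1 it was 6.57 ± 1.16 on the first. With all arrays it was 1.80 on the first with normexp and 2.45 with the authors' values. Against control replicates 2 to 4, T3R1 hearts were at least 25.2-fold higher on the first probe and at least 8.50-fold higher on the second. T2R1 hearts were at least 2.97-fold higher on the first probe, with 3 of 4 arrays measured, and at least 1.31-fold on the second, with 2 of 4 measured. Without T2R1 replicate 2 the first bound was 1.96-fold and the second did not reach above 1, and without T2R1 replicate 1 the first was 5.30-fold. T1R1 hearts, with 2 of 4 arrays measured, were at least 1.62-fold higher on the first probe, a bound that was 3.02-fold without T1R1 replicate 1, 1.00-fold without replicate 3 and not above 1 without replicate 2. On the second probe no T1R1 bound above 1 was reached with all T1R1 arrays.

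Spp1, the integrin and Cd44 ligand osteopontin, varied widely from heart to heart within the shorter exposures. Levels were -3.88, -0.18, -3.47 and -3.62 in T1R1 hearts, -3.92, -0.26, -2.07 and -1.27 in T2R1 hearts and 1.38, 1.67, 1.74 and 0.74 in T3R1 hearts, against 1.66, -4.69, -5.39 and -4.36 in control hearts (chr5:104868502-104868561, mm9, plus strand). One T1R1 heart, replicate 2, lay far above the other 3, and control replicate 1 lay inside the T3R1 range. The log2 difference of T3R1 over control was 4.58 ± 1.31, and 6.20 ± 0.88 without control replicate 1. With normexp the first was 2.54. Against control replicates 2 to 4, in which the probe was not well above background, T3R1 hearts were at least 61.9-fold, T2R1 hearts at least 6.44-fold and T1R1 hearts at least 3.43-fold higher. The T1R1 bound was 1.88-fold without T1R1 replicate 2, and the T2R1 bound 10.3-fold without T2R1 replicate 1.

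The 3 thrombospondins differed among themselves. Thbs4, which is induced in stressed muscle, had levels of 0.42, 2.76, 1.77 and 1.40 in T1R1 hearts, 1.93, 2.43, 1.88 and 2.35 in T2R1 hearts and 3.77, 3.01, 3.66 and 3.38 in T3R1 hearts, against 2.96, 0.68, 0.75 and 0.70 in control hearts (chr13:93521565-93521624, mm9, minus strand). It kept the common order, with T3R1 above all others and T1R1 overlapping T2R1. With the authors' values T3R1 replicate 2 (11.302) lay just below control replicate 1 (11.337). For Thbs4 the log2 difference of T3R1 over control was 2.18 ± 0.50, and 2.74 ± 0.39 without control replicate 1.

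Thbs1, an activator of latent TGF-beta and a ligand of Cd36 and Cd47, had overlapping levels in the T2R1 and T3R1 groups. Levels were -0.03, 1.85, 1.77 and 1.16 in T1R1 hearts, 1.55, 3.91, 0.93 and 2.04 in T2R1 hearts and 2.30, 2.11, 2.24 and 1.35 in T3R1 hearts, against 2.23, 0.42, 0.57 and 0.35 in control hearts (chr2:117952585-117952644, mm9, plus strand). The highest array of all was T2R1 replicate 2, and the 3 exposed groups overlapped. The T3R1 mean was 2.00 ± 0.44 and the T2R1 mean 2.11 ± 1.28 (SD, n = 4 each), a log2 difference of -0.11 ± 0.60 across slides. Without T2R1 replicate 2 the T2R1 mean was 1.51 ± 0.56 (SD, n = 3) and T3R1 minus T2R1 was 0.49, and T2R1 over control was 0.62, against 1.22 with all arrays. T3R1 over control differed by 1.11 ± 0.60, and by 1.55 ± 0.59 without control replicate 1.

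Thbs2, which restrains vessel growth, stood apart in T3R1 hearts and lay near control in the other exposed groups. Its levels were 0.02, -0.66, -0.11 and -0.28 in T1R1 hearts, -0.11, -0.27, -0.09 and -0.26 in T2R1 hearts and 0.83, 0.24, 0.56 and 0.67 in T3R1 hearts, against -0.19, -0.28, -0.33 and -0.18 in control hearts. T3R1 lay above all 12 other arrays, and control replicate 1 lay within the control range. The log2 difference was 0.82 ± 0.14 for T3R1 over control (0.84 ± 0.15 without control replicate 1), 0.06 ± 0.14 for T2R1 over control and -0.01 ± 0.14 for T1R1 over control.

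**Figure D2:**
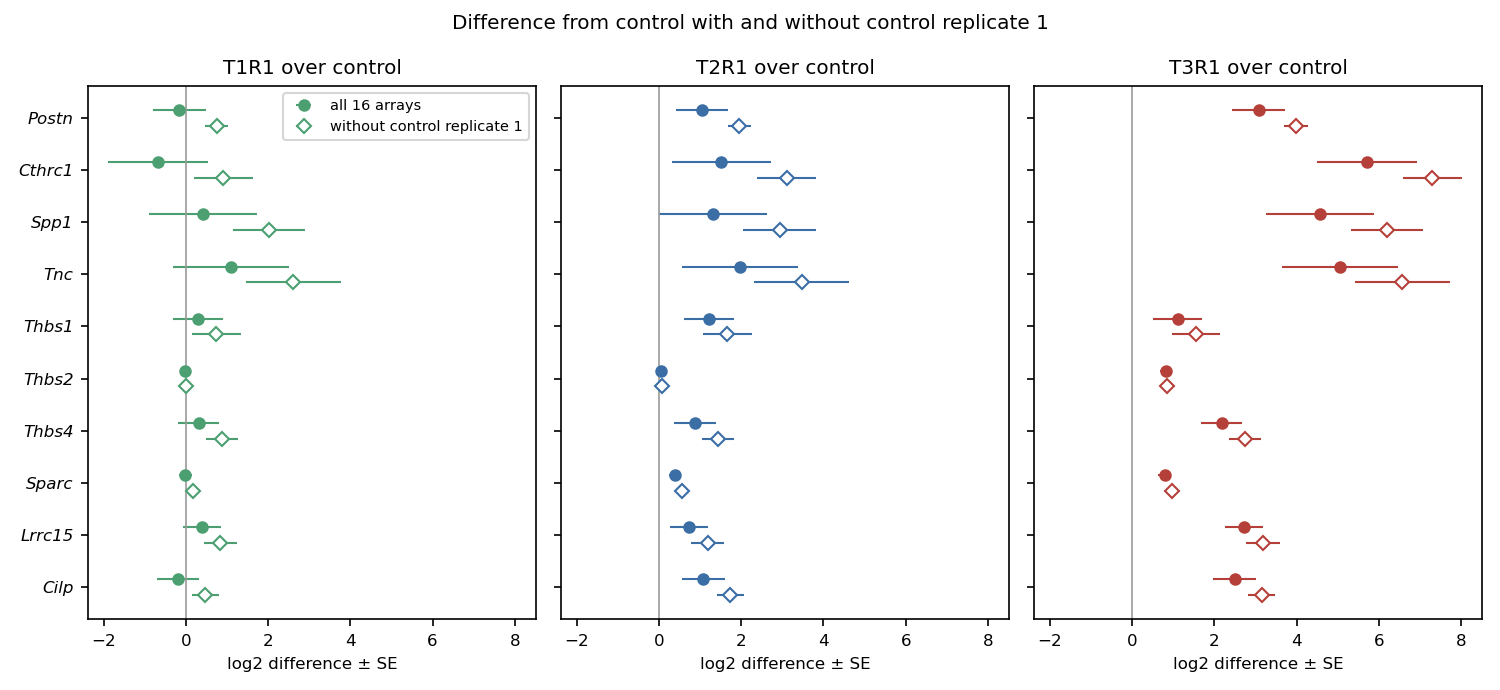
Log2 difference from control ± SE for each gene and exposure, as filled circles with all 16 arrays and as open diamonds without control replicate 1. Leaving out that array moved Cthrc1 in T3R1 to 7.30, against 5.72 with all arrays, and left Thbs2 at 0.84, against 0.82.

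Over the 10 genes the median log2 difference from control was 0.14 in T1R1, 1.06 in T2R1 and 2.61 in T3R1, beside -0.01, 0.02 and -0.08 over all 22763 features. The T1R1 median was -0.07 when T1R1 replicate 2 was left out. With control replicate 1 left out the medians were 0.80, 1.70 and 3.17, beside -0.01, 0.02 and -0.13. The T2R1 median was 0.32 with normexp and 0.41 with the authors' values, and the T3R1 median was 1.64 over the members well above background on all 16 arrays. For T2R1 over T1R1 the median was 0.89, beside 0.05. It was 0.37 without T2R1 replicate 2, 0.43 without T1R1 replicate 1 and 0.56 without T1R1 replicate 4, and leaving out each array in turn gave at most 1.16. The groups against control share the same control arrays, so these values are not independent of each other.

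Counts past the threshold of the limma fit (Benjamini-Hochberg adjusted p under 0.05 over all features) are given beside the share of all features past it, and nothing is read from them, because the genes were selected on these contrasts. In T3R1 over control 6 of the 10 passed as higher (Postn, Cthrc1, Thbs2, Sparc, Lrrc15 and Cilp) and 0 as lower, beside 0.505% and 0.189% of all features. In T2R1 over control 0 passed, beside 14.8% of features higher and 3.58% lower, with 7025 features and 1 of the 10 genes at an unadjusted p under 0.05. In T1R1 over control 0 passed, beside 7.74% higher and 2.11% lower, with 5895 features and 0 of the 10 genes at an unadjusted p under 0.05. In T2R1 over T1R1 0 features of any kind passed (0% in either direction), with 1782 features and 2 of the 10 genes at an unadjusted p under 0.05.

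These counts rest on single arrays. When control replicate 1 was left out, 9 of the 10 passed as higher in T3R1 over control, beside 10.2% of features higher and 19.2% lower, Thbs1 being the gene that did not. In T2R1 over control 8 then passed, beside 15% higher and 9.37% lower, and in T1R1 over control 0, beside 8.18% higher and 9.65% lower. The T3R1 count was 0 when control replicate 2, 3 or 4 or T3R1 replicate 1 or 3 was left out in its turn. It was 2 or 3 when T1R1 replicate 3 or 4, any T2R1 array, or T3R1 replicate 2 or 4 was left out. Over the fits without 1 array each, all features past the threshold in T3R1 over control numbered 3 to 6695. Nothing is read from these counts either.

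Of 70 further genes of the same biology, written out as lists of other matricellular proteins, activated fibroblast genes, resting fibroblast genes and receptors, 64 passed the filter on dim signals. Tnn, Spock3, Dmp1 and Itgb8 were well above background on no array. The lists, like the members, were chosen with earlier results of these data known, so their counts and p-values are a description. In T3R1 over control 7 of the 64 passed as higher and 0 as lower. In T2R1 over control 1 passed as higher and 5 as lower, and in T1R1 over control 0 and 5, both across slides. In T2R1 over T1R1 0 passed, with 13 at an unadjusted p under 0.05, beside 1782 of all features. Over all features 0.505% were higher and 0.189% lower in T3R1, 14.8% and 3.58% in T2R1 and 7.74% and 2.11% in T1R1. Leaving out control replicate 1 gave 40 higher and 4 lower in T3R1 (10.2% and 19.2% of all features), 10 and 7 in T2R1 (15% and 9.37%) and 2 and 8 in T1R1 (8.18% and 9.65%). Leaving out control replicate 2, 3 or 4 or T3R1 replicate 1 or 3 gave 0 passing genes in T3R1, and T1R1 replicate 3 or 4, any T2R1 array or T3R1 replicate 2 or 4 gave 2 to 4. All features passing numbered 3 to 6695 over the fits without 1 array each.

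The fibrillar collagens of the resting fibroblast list rose in T3R1 hearts along with the members. Col3a1 had means of 6.56 in T3R1 and 4.03 in control hearts, a log2 difference of 2.52 ± 0.50 (limma adjusted p = 0.0377), and Col1a1 one of 2.30 ± 0.42 (adjusted p = 0.0272). Col1a2 rose by 1.81 ± 0.29 (adjusted p = 0.0232). These were the 3 of 10 genes of that list that passed, and the list median was 0.32. The call on Col3a1 was lost under quantile normalization (adjusted p = 0.0507) and median scaling (adjusted p = 0.0806), and that on Col1a1 under median scaling (adjusted p = 0.0597). The 7 other genes of the list, among them Pdgfra, Tcf21 and Dcn, did not pass with all arrays. Without control replicate 1, 6 of the list passed as higher and 1 as lower in T3R1 hearts, beside 10.2% and 19.2% of all features. The lower one was Gsn, at -0.81 (limma adjusted p = 0.00286).

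Among 20 activated fibroblast genes 3 rose in T3R1 hearts and 0 fell, with a list median of 1.07. Lox, which crosslinks collagen, had means of 0.68 in T3R1 and -3.25 in control hearts, a difference of 3.93 ± 0.83 (limma adjusted p = 0.0486). Aspn, a collagen-binding proteoglycan, rose by 1.29 ± 0.26 (adjusted p = 0.0396) and the microfibril protein Mfap4 by 1.16 ± 0.22 (adjusted p = 0.0341). The Lox call was lost under quantile normalization (adjusted p = 0.0562), and its difference was 2.28 with normexp and 2.66 with the authors' values, where it passed. Under median scaling all 3 calls were lost, with adjusted p of 0.0806 for Lox and Mfap4 and 0.0836 for Aspn. Fn1, fibronectin, differed by 1.90 ± 0.46 (adjusted p = 0.0614). Fap, a surface protease of activated fibroblasts, differed by 0.29 ± 0.18 (adjusted p = 0.349). Without control replicate 1, 18 of the 20 passed as higher, beside 10.2% of all features, Acta2 and Cdh11 being the 2 that did not.

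Acta2 is the smooth muscle actin of myofibroblasts and vessel walls. Its means in T1R1, T2R1 and T3R1 hearts, 4.57, 5.01 and 5.81, ran in the members' order. Unlike the members, it passed as lower than control in T1R1 and T2R1 hearts. It was lower in T1R1 hearts, with means of 4.57 in T1R1 and 5.49 in control hearts and a log2 difference of -0.92 ± 0.14 (limma adjusted p = 0.00199). In T2R1 hearts it fell by 0.48 ± 0.14 (adjusted p = 0.0324), and in T3R1 hearts the difference was 0.32 ± 0.14 (adjusted p = 0.215). Mfap4 fell by 1.06 ± 0.22 in T1R1 hearts (adjusted p = 0.00911) and the collagen-binding integrin Itga11 fell by 0.72 ± 0.17 (adjusted p = 0.0178). The T1R1 and T2R1 values set arrays of different slides against each other. The T2R1 call on Acta2 was lost without control replicate 1 (log2 difference -0.41, adjusted p = 0.0628), under quantile normalization (adjusted p = 0.0626) and with normexp (adjusted p = 0.0519). The median of the smooth muscle and pericyte markers stood below control replicates 2 to 4 on the same arrays, as on control replicate 1 (-0.41). It was -0.61 to -0.13 in T1R1, -0.40 to -0.22 in T2R1 and -0.58 to -0.23 in T3R1 hearts. Cspg4 of that list went the other way, at 0.50 ± 0.10 in T3R1 over control (limma adjusted p = 0.0354). The part of these markers in the Acta2 difference was not tested.

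Among 23 other matricellular genes 18 passed the filter, and 1 rose in T3R1 hearts, with a list median of 0.16. That was Ccn5, a CCN family protein without the C-terminal domain of its relatives, at 0.79 ± 0.17 (limma adjusted p = 0.0488), a call lost under quantile normalization (adjusted p = 0.0508) and median scaling (adjusted p = 0.129). Ccn4 differed by 1.67 ± 0.40 (adjusted p = 0.0614), Ccn2 by 0.78 ± 0.44 (adjusted p = 0.299), Ccn1 by 0.25 ± 0.27 (adjusted p = 0.602) and Ccn3 by 0.07 ± 0.24 (adjusted p = 0.885). In T2R1 hearts Comp, a pentameric relative of the thrombospondins, fell by 1.01 ± 0.18 (adjusted p = 0.00177) and Smoc1, a relative of Sparc, fell by 0.93 ± 0.17 (adjusted p = 0.00182). Comp fell by 0.68 ± 0.18 in T1R1 hearts (adjusted p = 0.0275), a call lost under quantile normalization (adjusted p = 0.0651). Spock1 was higher in T2R1 hearts at 0.71 ± 0.17 (adjusted p = 0.00889), a call that was lost under each other scaling tried, with differences of 0.26 to 0.34. The T1R1 and T2R1 differences of this list are across slides, so exposure and slide cannot be told apart in them.

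Of the 17 receptors 16 passed the filter, and 0 passed the test in T3R1 over control, with a list median of 0.37. Itga8, the alpha subunit of an integrin that binds several of these proteins, was lower in T1R1 hearts, with a log2 difference of -1.22 ± 0.22 (limma adjusted p = 0.00395), and in T2R1 hearts, with one of -0.88 ± 0.22 (adjusted p = 0.013). Itgb5 fell by 0.28 ± 0.09 in T2R1 hearts (adjusted p = 0.0371), a call lost under quantile normalization (adjusted p = 0.12). For the receptors, too, the T1R1 and T2R1 differences from control are across slides. Without control replicate 1, 9 receptors were higher and 2 lower in T3R1 hearts, beside 10.2% and 19.2% of all features.

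**Figure D3:**
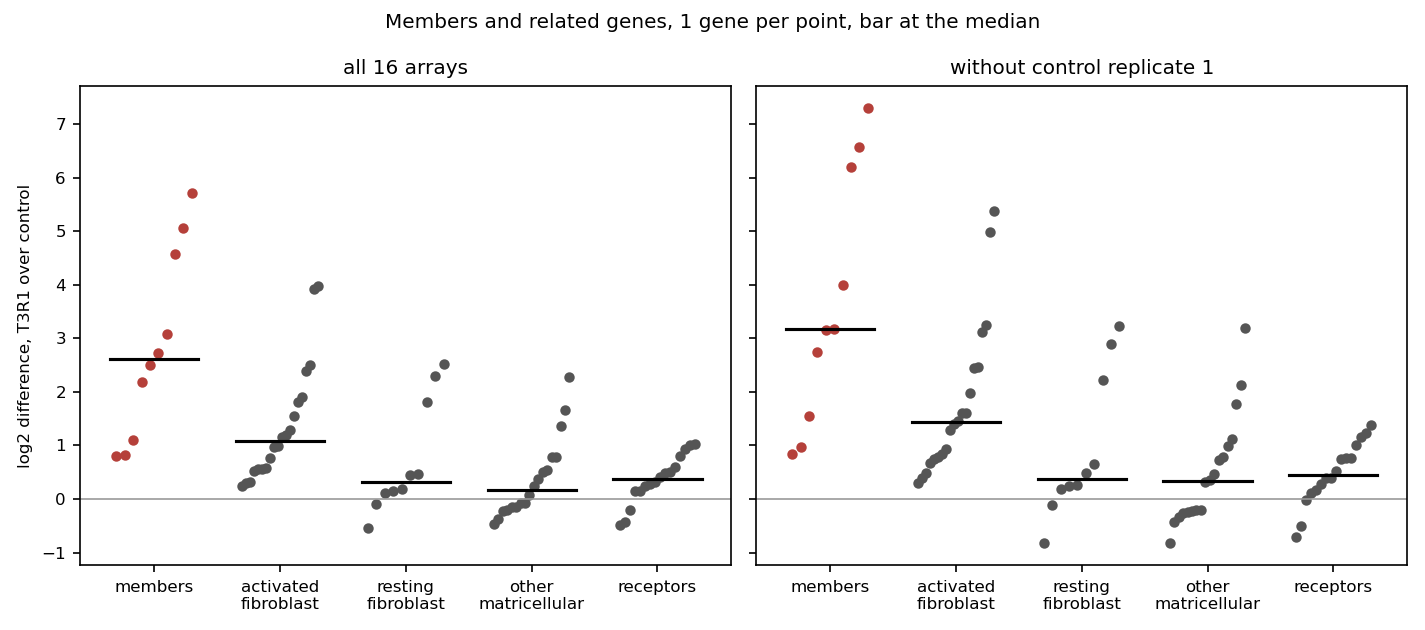
Log2 difference of T3R1 over control for the 10 members and for each gene of the related lists that passed the filter on dim signals, 1 point per gene, with a bar at the list median, with all 16 arrays and without control replicate 1. The medians were 2.61 for the members, 1.07 for activated fibroblast genes, 0.32 for resting fibroblast genes, 0.16 for other matricellular genes and 0.37 for receptors with all arrays.

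The genes whose levels ran most like those of a member over the 16 arrays were taken from 13609 named genes well above background on every array. For Postn they were Col1a1 (Pearson r 0.993), Mfap5, Col5a1, Fstl1 and Col3a1 (0.988). For Cilp they were Srpx2 (0.971), Col3a1, Col1a1, Col6a1 and Fstl1 (0.962). For Thbs4 they were Loxl1 (0.987), Sprr1a, Ms4a6d, Col6a3 and Loxl2 (0.974).

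Spp1 ran with Ripk3 (0.985), Prim2, Adam8, Tubb3 and Tubb2b (0.981). Thbs1 ran with Sphk1 (0.956), Plk3, Tnfaip6, Egr2 and Kctd11 (0.934), of which Egr2 and Plk3 are known as early-response genes. With group means removed these values of r lay between 0.875 and 0.991. All 16 arrays share the split of T3R1 and control replicate 1 from the rest, so the values describe these arrays and carry no test.

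Marker lists of other cell types were read on the same arrays, as the median difference of a list from control replicates 2 to 4. Proliferation genes stood at -0.23 to 0.99 in T1R1, 1.19 to 2.52 in T2R1 and 3.78 to 4.53 in T3R1 hearts, and at 4.49 on control replicate 1. Macrophage genes stood at 0.04 to 0.34 in T1R1, 0.07 to 0.45 in T2R1 and 0.89 to 1.29 in T3R1 hearts, and at 1.06 on control replicate 1. Both lists were highest on the T3R1 arrays and control replicate 1. With 7 of 7 macrophage markers well above background on all 16 arrays, the part of these cells in the members' differences was not tested. Aurkb, of the proliferation list, was well above background on no array. Only 3 of the 10 genes of that list were well above background on all 16 arrays. The medians of the list therefore include genes with dim values, which limits the size read from them.

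Cardiomyocyte markers, 6 of 6 well above background on all 16 arrays, stood at -0.36 to -0.16 in T1R1, -0.23 to -0.04 in T2R1 and -0.72 to -0.19 in T3R1 hearts, and at -0.96 on control replicate 1. The 10 resting fibroblast markers were all well above background on every array and stood at 0.25 to 0.51 in T3R1 hearts and 0.39 on control replicate 1. Genes of that list moved in both directions, from Gsn at -0.81 to Col3a1 at 3.23 in T3R1 over control without control replicate 1. In whole hearts, more cells of a type and more RNA per cell cannot be told apart. Endothelial markers stood at -0.41 to -0.20 in T3R1 hearts and smooth muscle and pericyte markers at -0.58 to -0.23.

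**Figure D4:**
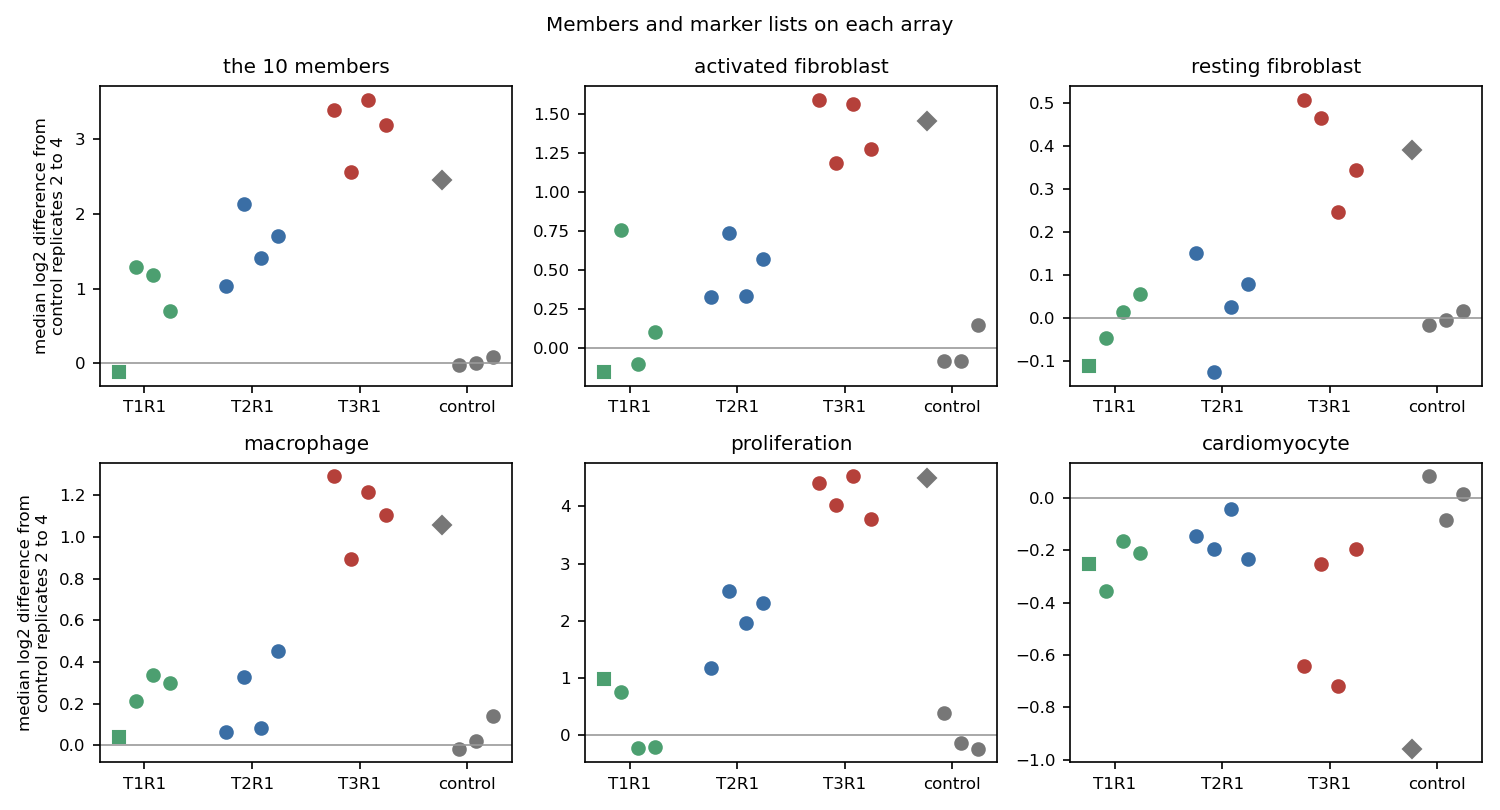
Median log2 difference from control replicates 2 to 4 on each array, for the 10 members and for 5 marker lists, by group with 1 point per heart. Diamonds are control replicate 1 and squares are T1R1 replicate 1. The members stood at 2.56 to 3.53 on T3R1 arrays and at 2.45 on control replicate 1.

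Lists for other tissues were read in the same way. Platelet markers stood at -0.97 to -0.04 in T1R1, 0.07 to 1.18 in T2R1 and -0.86 to 0.45 in T3R1 hearts, against -0.78 to 0.21 in control hearts. They were thus higher on every T2R1 than on every T1R1 array, and the part of platelets in the T2R1 levels of the members, Thbs1 among them, was not tested. Adipocyte markers were at -2.54, -3.63 and -2.94 on T1R1 replicates 2 to 4 and -3.05 on T2R1 replicate 4, and at -0.60 to 1.67 in control hearts. In T1R1 over control 2 of 6 passed as lower, and 0 without control replicate 1, beside 2.11% and 9.65% of all features. On T1R1 replicate 1 the adipocyte markers were at 0.36, on the other T2R1 arrays at -0.09, -0.54 and -0.34, and in T3R1 hearts at -0.52 to 0.64. Cartilage, tendon and valve markers, of which 3 of 7 passed the filter and Tnmd was well above background on no array, stood at 0.14 to 0.42 in T1R1, 0.31 to 0.42 in T2R1 and -0.30 to 0.12 in T3R1 hearts, against -0.26 to 0.12 in control hearts. The 2 thymus markers that passed the filter stood at 0.20 to 3.37 in T1R1, with the highest on replicate 1, 0.77 to 1.24 in T2R1 and -0.23 to -0.05 in T3R1 hearts, against -0.39 to 0.46 in control hearts. Liver markers ranged up to 4.48 in T1R1, 2.72 in T2R1 and 3.22 in T3R1 hearts, against 1.99 in control hearts, and epicardial markers up to 1.26, 0.55 and 0.28, against 0.55 in control hearts.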

How the data were processed

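Total RNA of 16 hearts was labelled with cyanine 3 and read on 1-colour Agilent arrays. Per the file headers, the processed intensity of each spot was made with Feature Extraction 10.7.3.1, without normalization between arrays, and the other flags used (well above background, saturated, outlier) were set by the same software. The log2 values of the table the authors deposited have a median of 6.21 and rank spots exactly as the mean intensity does, which carries no background correction. In the sources used here, its normalization is not given.

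The log2 processed intensity minus the 75th percentile of the array was analysed, with outlier spots left out and spots of a probe averaged. Of 55681 probes, the 31390 that were well above background in every heart of 1 or more groups were kept, and the brightest one stood for its gene, giving 22763 features with 102 missing values. RefSeq accessions named 26762 probes, current symbols named 3819, and the remaining 25100 have the array's own name. The 4 groups entered 1 linear model in limma 3.58.1 (R 4.3.3, 12 residual and 2.26 prior degrees of freedom), two-sided, with Benjamini-Hochberg adjustment over all features and a threshold of 0.05. The fit was tested on simulated data. The number of arrays limits the precision.

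The members and the gene lists were chosen with earlier results of these data known. Named genes are the members, each listed gene that passed in at least 1 comparison, Ccn1 to Ccn5, Fn1, Acta2, Fap, Col1a1 and Col3a1, and the 5 genes most correlated with each of Postn, Spp1, Thbs1, Thbs4 and Cilp. Tnn, Spock3, Dmp1, Itgb8, Aurkb, Tnmd, Pdgfra, Tcf21, Dcn, Gsn, Cspg4 and Cdh11 were named after their values were seen. Probe positions are mm9, per the file headers, and upstream windows are RefSeq GRCm38.p6. Replicate numbers come from the labels. Deviations of same-numbered arrays from their group means correlated between -0.32 and 0.39. For T3R1 with control they were 0.39, 0.14, 0.02 and 0.30 in replicates 1 to 4. The hearts were not treated as pairs in the main fit, and a replicate block was run as an alternative. Alternatives covered background, scaling, the authors' values, the filter, the probe rule, the samples in the fit, the prior, array weights, the replicate block, the threshold and leaving out each array.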

Additional observations from a re-analysis of the deposited data

Results flagged for a closer look

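Within a group of 4 arrays, the gap between the highest array and its nearest neighbour, as a share of the range of the group, was set against Dixon's 95% critical value, which chance passes in about 1 in 20 groups. Control replicate 1 stood apart as the highest control for 7 of the members: Postn (0.938), Cthrc1 (0.898), Spp1 (0.854), Thbs1 (0.886), Thbs4 (0.969), Lrrc15 (0.893) and Tnc, by both its probes (0.969 and 0.96). The dimmer probe of Sparc passed as well (0.909). T1R1 replicate 2 stood apart for Spp1 (0.888), at a level of -0.18 against -3.88 to -3.47 on the other T1R1 arrays. The tests of these genes share the same arrays and are not independent.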

How the results depend on the processing

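No called difference of a member changed sign under the alternatives run. Over 266 alternative values of single members per comparison 266 were above 0 in T3R1, 264 in T2R1, 145 in T1R1 (all over control) and 263 in T2R1 over T1R1. The value is the number of members, of other pathway genes and the members' median log2 difference, in that order, unless one is named. T3R1 over control had 6, 7 and 2.61. Members and other genes passing were 2 and 4 with quantile normalization, 1 and 1 with median scaling, 0 and 0 without the filter on dim probes, 0 and 0 with only the 2 groups in the fit, 10 and 47 with array weights and 1 and 2 with the replicate block. Other genes numbered 11 with normexp and with the authors' values, 13 with probes well above background on all 16 arrays, 14 with an intensity trend and 25 at adjusted p under 0.1. The median was 1.95 with normexp and 1.64 with probes well above background on all 16 arrays, where 4 dim members drop out. Leaving out each array gave 0 to 9 members and 0 to 44 other genes, beside 3 to 6695 of all features. All features passing were 93 higher and 33 lower with quantile normalization, 15 and 9 with median scaling, 204 and 95 with normexp and 248 and 123 with the authors' values. For the other settings that count is not given here, and nothing is read from them. Without control replicate 1 and T1R1 replicate 1, chosen after seeing the data, there were 10 members and 45 other genes.

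T2R1 over control had 0, 6 and 1.06. Median scaling gave 19 other genes, beside 1392 features higher and 7768 lower. Array weights gave 9 members and 28 other genes, and the medians were 0.317 with normexp and 0.41 with the authors' values. Leaving out each array gave 0 to 8 members, 4 to 17 other genes and medians of 0.73 to 1.70, beside 2812 to 5545 of all features passing. Leaving out both arrays gave 9, 19 and 1.70. T1R1 over control had 0, 5 and 0.14. Median scaling gave 1 member and 30 other genes, beside 622 features higher and 10127 lower. The 2 groups alone gave 3 other genes, array weights 12 and adjusted p under 0.1 12. Leaving out each array gave 4 to 10 other genes and medians of -0.073 to 0.80, beside 1341 to 4059 of all features passing. Leaving out both arrays gave 3, 20 and 1.10. T2R1 over T1R1 had 0 and 0 throughout, with medians of 0.37 to 1.16 when each array was left out. The cause of these moves was not tested.

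Median scaling moved the median of all features to -0.44 in T1R1 and -0.37 in T2R1 over control, so the share of calls that were higher was 5.79% and 15.2% there, against 78.6% and 80.5% with the 75th percentile. With quantile normalization it was 51.4% and 60.7%, with normexp 51% and 68%, and with the authors' values 45.9% and 56.7%. In T3R1 it was 62.5% with median scaling, against 72.8%. Thbs2 in T2R1 over control was -0.33 under median scaling. The replicate block moved no other count by over 1.5 times. Dim signals limit Cthrc1, Spp1, Tnc and Lrrc15, whose T3R1 differences were smaller with normexp and the authors' values. The bounds and Thbs1 means without single arrays were added after seeing the data.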
